A study of Mus musculus with 4 samples.

Results

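Chemokine receptors tell a lymphoid cell where to go. The mRNA levels of *Ccr6*, *Ccr7*, *Ccr8*, *Ccr9*, *Cxcr3* and *Cxcr5* were examined in group 3 innate lymphoid cells (ILC3s) of the large intestine after activation of DR3. These 6 genes were taken by their symbols from the 2179 genes that the authors listed as differing between the treatments. ILC3s were sorted as lineage-negative GFP+ lamina propria lymphocytes (LPLs) from Rag1-/- mice, which have no mature T or B cells, that also carried a GFP reporter allele marking ILC3s. Young adult littermates had received 1 µg of α-DR3 (4C12, an agonistic antibody against the TL1A receptor DR3) or PBS, and cells were collected on day 3. Each group had 2 libraries, each from the pooled cells of several mice, and all 4 libraries shared the same genotype, with 1 reporter allele.

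Chemokine receptors are G protein-coupled receptors in the cell membrane that signal through Gi and guide cells along gradients of chemokines. CCR9 with its ligand CCL25 and the integrin α4β7 with MAdCAM-1 are known for homing to the gut, whereas CCR7 with CCL19 and CCL21 and CXCR5 with CXCL13 are known for positioning cells in lymphoid tissue. CCR6, the receptor for CCL20, marks the lymphoid tissue inducer (LTi)-like ILC3s of cryptopatches, and CXCR3, the receptor for CXCL9, CXCL10 and CXCL11, is typical of type 1 lymphocytes and of NCR+ ILC3s. CCR8 binds CCL1 and CCL8.

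The values are the means that the authors deposited for each group, in FPKM, which counts fragments relative to the length of the transcript and to all mapped fragments of the library. Of each gene these are 2 numbers, 1 per treatment, and the column the authors called wild type was read as PBS, the only other group. The study also gives FPKM for single libraries outside this table, which were not used here. No spread between replicates, test or statement on overlap of the groups is therefore given, and every difference described below is a difference between 2 group means. The table does not give the depth of the libraries, and so no counting error is given. By the study's methods each listed gene had passed a p-value of 0.05 in the authors' own test and exceeded 1 FPKM in at least 1 group mean, so that being higher or lower in this table is how the genes came to be listed and is not a finding on the receptors. Between these means, fewer cells of one type and less RNA per cell cannot be told apart. Levels of mRNA do not show receptor protein on the cell surface or migration. The study reports that CCR7 protein in ILC3s did not match the mRNA change after α-DR3. It also found no accumulation of ILC3s in mesenteric lymph nodes or the other organs examined.

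The promoter sequences of the receptors are shown first, to place receptors with higher and lower mRNA beside each other. RefSeq (GRCm38.p6) promoters were matched for 4 of the 6 genes, with 2 start sites for *Ccr6*, and *Ccr7* and *Cxcr5* were not matched. The stretches run 5′ to 3′ from 250 bases before the start site and end where the start site or an annotated exon begins. Capitals mark matches, on either strand, to the motifs of NF-κB (GGG and TTCC with any 3 bases between them), TGANTCA (AP-1) and TCACACC (T-box factors), none of which overlapped another.
*Ccr6* upstream start, chr17:8235793-8236042, + strand: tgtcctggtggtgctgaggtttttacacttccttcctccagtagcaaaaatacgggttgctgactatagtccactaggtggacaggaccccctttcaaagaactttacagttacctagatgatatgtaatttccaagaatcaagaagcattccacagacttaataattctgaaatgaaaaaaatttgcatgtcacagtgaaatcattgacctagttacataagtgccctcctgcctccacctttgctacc
*Ccr6* downstream start, chr17:8242276-8242525, + strand: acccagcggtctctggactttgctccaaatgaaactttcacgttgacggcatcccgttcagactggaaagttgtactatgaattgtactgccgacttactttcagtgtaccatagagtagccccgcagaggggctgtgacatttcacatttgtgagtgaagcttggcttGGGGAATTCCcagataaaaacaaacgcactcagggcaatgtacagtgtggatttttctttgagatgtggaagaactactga
*Ccr8*, chr9:120091883-120092113, + strand: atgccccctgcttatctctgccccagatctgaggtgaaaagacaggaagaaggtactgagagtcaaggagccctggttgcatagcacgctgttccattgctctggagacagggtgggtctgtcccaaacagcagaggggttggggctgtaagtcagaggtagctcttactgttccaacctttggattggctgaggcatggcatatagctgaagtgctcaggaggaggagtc
*Ccr9*, chr9:123766961-123767168, + strand: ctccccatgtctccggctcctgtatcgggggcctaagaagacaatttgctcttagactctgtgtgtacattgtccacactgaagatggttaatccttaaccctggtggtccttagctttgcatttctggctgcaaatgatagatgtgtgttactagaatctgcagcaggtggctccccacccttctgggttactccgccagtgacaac
*Cxcr3*, chrX:101734270-101734397, - strand: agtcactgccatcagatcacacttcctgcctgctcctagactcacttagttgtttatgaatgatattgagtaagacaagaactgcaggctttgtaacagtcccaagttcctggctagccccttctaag
In the full 250 bases before each start the only match was at *Ccr6*, where the NF-κB letters stood 81 bases before the downstream start. Of all 32851 RefSeq promoter windows of the same length, 4.65% held the NF-κB letters, 6.75% the AP-1 letters and 3.33% the T-box letters. A match describes the sequence alone and says nothing of binding.

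*Ccr7* mRNA was the most abundant of the 6 in both groups. Its mean was 54.22 FPKM in PBS and 294.485 FPKM in α-DR3, which is 5.43 times the PBS level (2.44 on the log2 scale). The gene (ENSMUSG00000037944.8) lies on chromosome 11 of GRCm38, from 99144196 to 99155077. Among all listed genes it moved from place 319 by PBS level to place 62 by α-DR3 level, and 103 of them had a larger ratio. *Cxcr5*, the other receptor known for lymphoid positioning (ENSMUSG00000047880.7, chromosome 9, 44511787 to 44561877), had 44.365 FPKM in PBS and 71.865 FPKM in α-DR3. Its ratio of 1.62 was the smallest among the receptors with a higher mean in α-DR3. *Cxcr5* was thus close to *Ccr7* in PBS, where the *Ccr7* level was 1.22 times that of *Cxcr5*, and far below it in α-DR3, where it was 4.10 times.

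*Ccr6* (ENSMUSG00000040899.6, chromosome 17, 8236043 to 8257141) had 29.45 FPKM in PBS and 68.28 FPKM in α-DR3, a ratio of 2.32. *Ccr8* (ENSMUSG00000042262.4, chromosome 9, 120092114 to 120094906) was the lowest of the 6 in PBS, at 7.575 FPKM, and had 21.085 FPKM in α-DR3, a ratio of 2.78. Only *Ccr7* had a larger ratio among the 6. In order of the ratio, 4.73% of all listed genes lay above *Ccr7*, 12.0% above *Ccr8*, 16.2% above *Ccr6* and 31.5% above *Cxcr5*.

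*Ccr9* (ENSMUSG00000029530.8, chromosome 9, 123678439 to 123784330) had 12 FPKM in PBS and 2.75 FPKM in α-DR3, so that the PBS level was 4.36 times the α-DR3 level (-2.13 on the log2 scale). Only 16 of the 2179 listed genes had a lower ratio. *Cxcr3* (ENSMUSG00000050232.6, chromosome X, 101731535 to 101734269) had 32.27 FPKM in PBS and 10.01 FPKM in α-DR3, so that the PBS level was 3.22 times the α-DR3 level, and 36 listed genes had a lower ratio. With a pseudocount of 5 the log2 ratios were -1.13 for *Ccr9* and -1.31 for *Cxcr3*, so the order of these receptors by ratio depends on how low levels are handled. *Cxcr3* was the third most abundant of the receptors in PBS, above *Ccr6*, and the fifth in α-DR3, while *Ccr9* was the fifth in PBS and the last in α-DR3. Since the spread between libraries was not analysed here, neighbours in these orders, such as *Cxcr3* and *Ccr6* in PBS or *Cxcr5* and *Ccr6* in α-DR3, cannot be ranked with confidence.

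**Figure D1:**
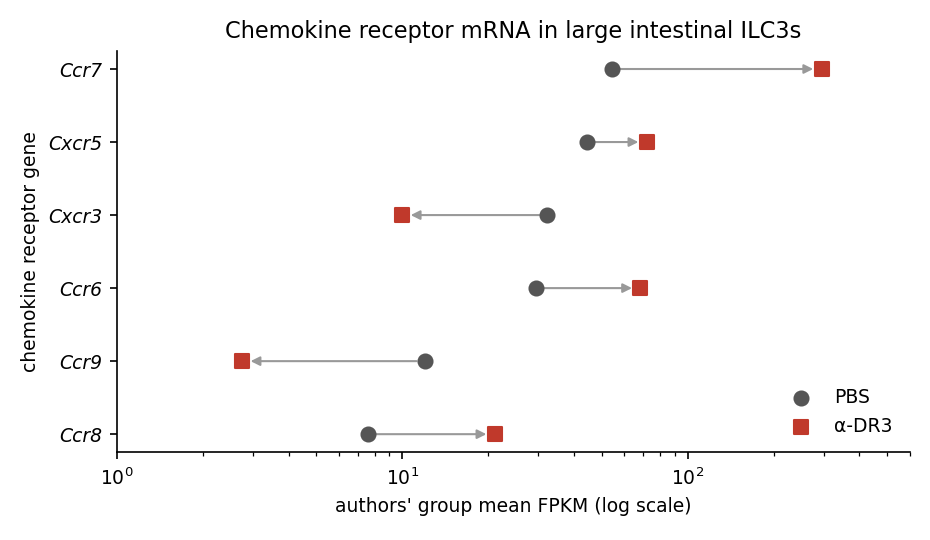
The authors' group mean in FPKM (log axis) for each receptor gene, with grey circles for PBS, red squares for α-DR3 and arrows from PBS to α-DR3. *Ccr7*, *Cxcr5*, *Ccr6* and *Ccr8* are higher in α-DR3 and *Cxcr3* and *Ccr9* are lower, and the means of 2 libraries carry no error bars because single libraries were not analysed.

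By a limit of 1.5-fold on the ratio of means, 4 of the 6 receptors were higher in α-DR3 and 2 were lower. The same limit was met by 37.1% of all listed genes in the higher direction and by 38.4% in the lower direction. The median ratio of the 6 receptors was 1.97, beside 1.31 for all listed genes. That median of all listed genes is 0.39 on the log2 scale, and relative to it *Cxcr5* had a log2 ratio of 0.31 and no longer passed the 1.5-fold limit. With this centring 31.8% of all listed genes past the limit were higher, with a sum over all listed genes but *Il22* as the scale 37.0%, and without rescaling 49.1%. The listed genes were chosen for differing, so neither scale has a set of unchanged genes behind it. Under both scales *Ccr7*, *Ccr8* and *Ccr6* were still above 1.5-fold and *Ccr9* and *Cxcr3* below it.

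**Figure D2:**
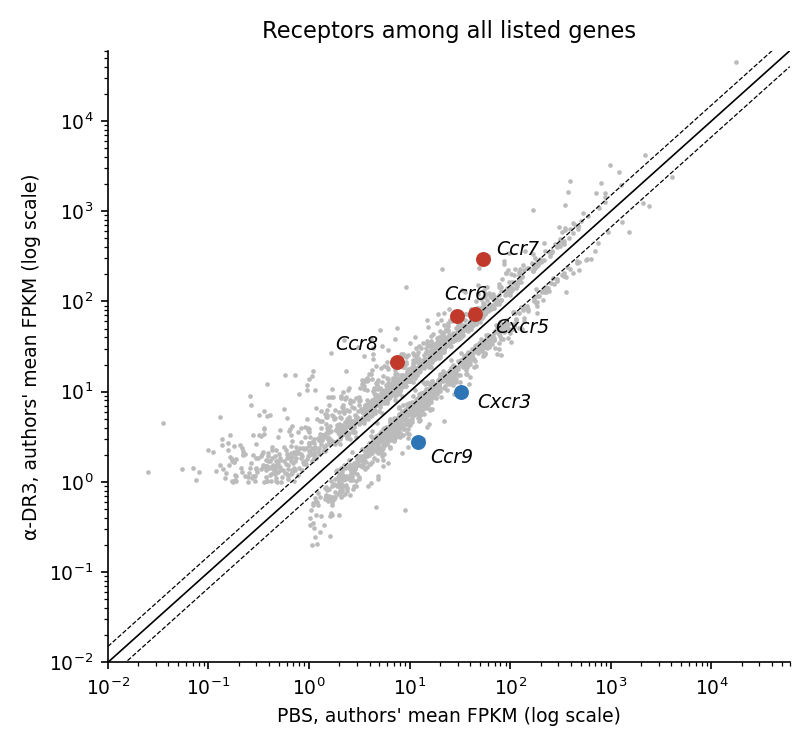
Authors' mean FPKM in PBS (horizontal, log axis) and α-DR3 (vertical, log axis) for the listed genes above 0 in both groups, with the 6 receptors in red (higher in α-DR3) or blue (lower). The solid line marks equal levels and the dashed lines 1.5-fold, and *Ccr7*, *Ccr9* and *Cxcr3* lie at the outer edge of the cloud, with 103 genes above the ratio of *Ccr7* and 16 below that of *Ccr9*.

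FPKM is scaled to transcript length, so levels of different receptors can be added. The summed level of the 6 receptors was 179.88 FPKM in PBS and 468.475 FPKM in α-DR3. *Ccr7* alone made up 83.3% of the difference, and without it the sums were 125.66 and 173.99 FPKM. The lymphoid receptors *Ccr7* and *Cxcr5* together took 54.8% of the sum in PBS and 78.2% in α-DR3. *Ccr9* and *Cxcr3* took 24.6% in PBS and 2.72% in α-DR3, whereas *Ccr6* and *Ccr8* kept 20.6% and 19.1%. *Ccr9* and *Cxcr3* are the receptors with lower means in α-DR3, so the smaller share of this pair follows from the grouping. With *Ccr7* left out of the sum, *Cxcr5* took 35.3% in PBS and 41.3% in α-DR3, and *Ccr9* with *Cxcr3* took 35.2% and 7.33%.

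Set against each other, the *Ccr7* level was 4.52 times the *Ccr9* level in PBS and 107 times in α-DR3, which is a 23.7-fold difference between the groups. *Ccr7* with *Cxcr5* was 2.23 times *Ccr9* with *Cxcr3* in PBS and 28.7 times in α-DR3. The latter pair joins the receptors with lower means in α-DR3 and the former pair has higher means, so the wider ratio follows from the grouping. Most of the latter pair is *Cxcr3* (32.27 FPKM in PBS and 10.01 FPKM in α-DR3), which was not introduced above as a gut-homing receptor. The *Ccr6* level was 0.913 times the *Cxcr3* level in PBS and 6.82 times in α-DR3, so that these receptors had close means in PBS and distant ones in α-DR3. Such a ratio between genes of the same group is not altered by a common scale of the libraries.

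**Figure D3:**
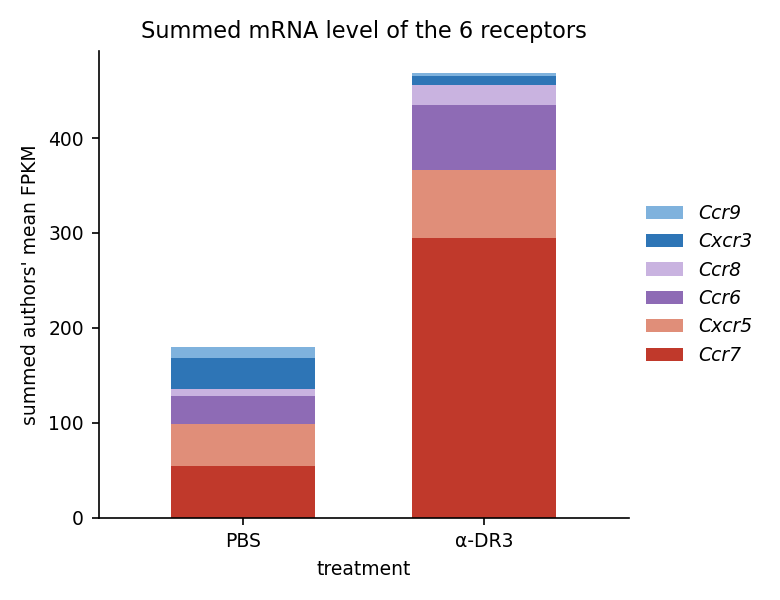
Summed authors' mean FPKM of the 6 receptors in PBS and α-DR3, with a coloured segment for each gene on an axis that starts at 0. The sum is 179.88 in PBS and 468.475 in α-DR3, with *Ccr7* as the largest segment of both bars and the blue segments of *Cxcr3* and *Ccr9* thin in α-DR3.

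Of 19 other chemokine receptor genes only *Cxcr7* was listed, with 4.93 FPKM in PBS and 6.155 FPKM in α-DR3 (ratio 1.25). It encodes an atypical receptor that takes up CXCL12 and is now named *Ackr3*. *Ccr10*, the receptor for CCL27 and CCL28, the CXCL12 receptor *Cxcr4* and *Cxcr6*, the receptor for CXCL16, were not listed, which does not show whether they were unchanged or too low. On chromosome 9, *Slc6a20a*, which encodes an amino acid transporter, shares 22 exon bases with *Ccr9* on the opposite strand. *Slc6a20a* was listed with 21.79 FPKM in PBS and 4.735 FPKM in α-DR3, a ratio of 0.217 beside 0.229 for *Ccr9*, and was singled out after its values were seen.

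Receptors for other attractants were listed for 3 of 18 genes. *S1pr1*, the receptor for sphingosine 1-phosphate known for the exit of lymphocytes from tissue, had 2.325 FPKM in PBS and 16.945 FPKM in α-DR3 (ratio 7.29). *S1pr3* had 4.125 and 15.545 FPKM (ratio 3.77), and *S1pr4*, the form typical of lymphoid cells, had 23.325 and 12.725 FPKM (ratio 0.546). Of these 3 receptors, *S1pr4* had by far the highest mean in PBS, and the means were closer to each other in α-DR3.

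Among 12 ligands of the 6 receptors, 3 were listed in the sorted cells themselves, and 2 of them were past 1.5-fold higher, as were 37.1% of all listed genes. *Ccl1*, a ligand of CCR8, had 1.145 FPKM in PBS and 10.44 FPKM in α-DR3 (ratio 9.12), with few reads behind it (1.52 as the log2 of the average CPM, a count scaled to the total of its library). *Cxcl9*, a ligand of CXCR3, had 2.5 and 10.895 FPKM (ratio 4.36), and *Cxcl10*, another one, had 311.295 and 407.04 FPKM (ratio 1.31). The ligands of CCR6, CCR7, CCR9 and CXCR5 were not listed, which does not show whether they were unchanged or too low.

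Of 47 genes that couple chemokine receptors to the cell or silence them, 14 were listed, 4 of them past 1.5-fold higher and 4 past it lower, with a median ratio of 1.36. Of all listed genes 37.1% were past the limit higher and 38.4% lower. After division by the median ratio 1 was past it higher and 6 lower, beside 21.1% and 45.3% of all listed genes. After division by the sum without *Il22* the numbers were 2 and 6, beside 26.2% and 44.7%. *Pik3r6*, a regulatory subunit of the PI3Kγ that Gβγ activates, had 7.52 FPKM in PBS and 20.595 FPKM in α-DR3 (ratio 2.74), and its catalytic partner *Pik3cg* had 8.185 and 5.085 FPKM (ratio 0.621). *Adrbk1* (GRK2), a kinase that desensitizes the receptors, had 16.325 and 27.33 FPKM (ratio 1.67). *Rgs3* and *Rgs14*, which speed the shutdown of Gα, had ratios of 0.518 and 0.639, and *Rac2*, a GTPase of cell movement, had 290.215 and 407.385 FPKM (ratio 1.40).

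Of 25 adhesion genes 6 were listed, 3 past the limit higher and 2 lower, beside 37.1% and 38.4% of all listed genes. *Itgb7*, the β chain of the gut-homing integrin α4β7, had 343.505 FPKM in PBS and 193.93 FPKM in α-DR3 (ratio 0.565). Its partner *Itga4* had 9.22 and 21.315 FPKM (ratio 2.31), so that the chains of this integrin differed in opposite directions. *Itgb2*, the β chain of LFA-1, had a ratio of 0.441. *Madcam1*, the vascular ligand of α4β7, had 0.26 and 9.025 FPKM, and *Vcam1*, the ligand of α4β1, had 0.29 and 1.015 FPKM.

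**Figure D4:**
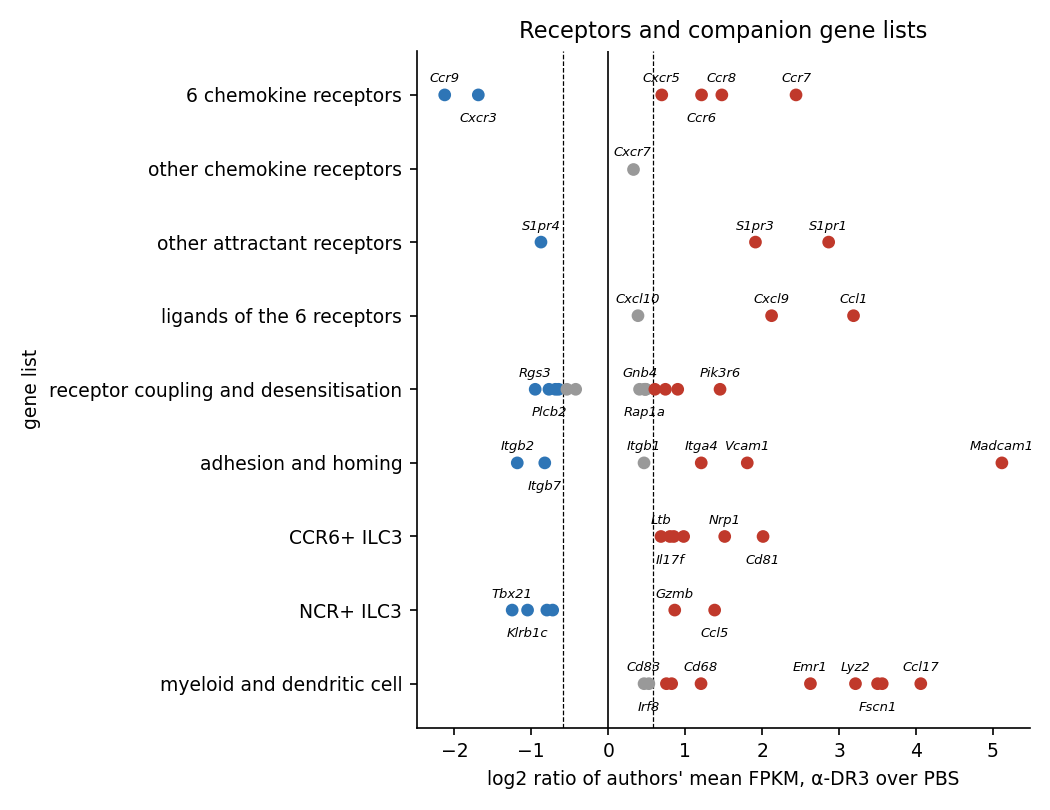
Log2 ratio of the authors' mean FPKM, α-DR3 over PBS, for the 6 receptors and for the listed members of 8 companion gene lists, 1 point per gene (some unnamed for space), red past 1.5-fold higher, blue past it lower and grey in between. The 6 listed genes of CCR6+ ILC3s all lie at or beyond 0.69, whereas 4 of the 6 listed genes of NCR+ ILC3s lie at or below -0.72.

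The receptors were set beside markers of the ILC3 subsets that they label. Of 8 markers of CCR6+ LTi-like ILC3s, 6 were listed and all 6 were past 1.5-fold higher in α-DR3, with a median ratio of 1.89 beside 37.1% past the limit and a median of 1.31 for all listed genes. Of these 6, 3 were past it after division by the median ratio and 4 after division by the sum without *Il22*, beside 21.1% and 26.2% of all listed genes. A limit of 2-fold was passed by 2 of them and by 20.5% of all listed genes. The 6 included *Nrp1* (8.155 and 23.295 FPKM), *Cd81* (32.875 and 132.66 FPKM) and *Lta* (100.945 and 199.145 FPKM). Of 9 markers of NCR+ ILC3s, 6 were listed with a median ratio of 0.591. *Ncr1*, the gene of NKp46, had 460.155 FPKM in PBS and 278.99 FPKM in α-DR3 (ratio 0.606), and *Tbx21*, the gene of T-bet, had 121.16 and 50.99 FPKM (ratio 0.421). *Klrk1* and *Klrb1c* were also past the limit lower, whereas *Gzmb* (ratio 1.82) and *Ccl5* (ratio 2.61) were past it higher. These 4 lower and 2 higher markers stand beside 38.4% and 37.1% of all listed genes, and after division by the median ratio 4 were lower and 1 higher, beside 45.3% and 21.1%. Thus the mean of *Ccr6* lay in the direction of the first list and *Cxcr3* in that of most of the second, and the part of subset numbers in the receptor levels was not tested.

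Of 17 ILC3 markers, 9 were listed, 7 past 1.5-fold higher and 1 past it lower, beside 37.1% and 38.4% of all listed genes. After division by the median ratio 3 were past it higher, beside 21.1% of all listed genes. Of the 7, *Lta*, *Ltb*, *Il17f* and *Tnfsf11* are also among the markers of CCR6+ ILC3s above. *Il22*, the signature cytokine of ILC3s, was the most abundant listed gene, with 17423.7 and 44536.61 FPKM, or 16.0% and 29.0% of the summed FPKM of the list. None of 5 T cell markers and none of 6 eosinophil and neutrophil markers were listed, and 1 of 5 B cell markers was (*Cd79b*, 10.91 and 27.19 FPKM). A marker that was not listed, here or below, may have been too low or may not have passed the authors' test. Absence from the list therefore does not show absence of the cells. Of 18 markers of myeloid and dendritic cells, which also use CCR7 when mature, 10 were listed and all 10 had a higher mean in α-DR3, 8 of them past 1.5-fold beside 37.1% of all listed genes. Their median ratio was 4.25, with summed levels of 434.825 FPKM in PBS and 708.72 FPKM in α-DR3. The most abundant were *Cd83* (258.155 and 356.535 FPKM), *Irf8* (92.25 and 133.02 FPKM), *Zbtb46* (42.26 and 71.39 FPKM) and *Batf3* (31.86 and 56.43 FPKM). These genes made up most of the summed level and had the smallest ratios of the list, from 1.38 to 1.77. The other listed markers had at most 4.085 FPKM in PBS, so the sum says little about them. The largest ratios were those of the chemokines *Ccl17* (2.22 and 37.105 FPKM, ratio 16.7) and *Ccl22* (0.13 and 1.535 FPKM, ratio 11.8), ligands of CCR4. *Lyz2* had 4.085 and 37.91 FPKM, *Fscn1*, a marker of mature dendritic cells, 0.57 and 6.455 FPKM, and the macrophage marker *Emr1* 0.19 and 1.175 FPKM, whereas *Itgax*, *Itgam*, *Flt3*, *Csf1r*, *Clec9a* and *Xcr1* were not listed. Of 6 markers of stroma and epithelium, *Dcn*, *Col3a1* and *Col1a1* were listed, and all 3 were past 1.5-fold higher in α-DR3, as were 37.1% of all listed genes. Their summed level was 5.355 FPKM in PBS and 13.69 FPKM in α-DR3, led by *Dcn* with 3.16 and 8.685 FPKM, and 1 of them had a mean over 5 FPKM in either group. The lineage stains that the study lists for flow cytometry include CD11b and CD11c, which mark most myeloid and dendritic cells, and the sorted cells were negative for lineage markers. At a later day the study also found more CD11b+CD11c+ cells, eosinophils and neutrophils in the large intestine of α-DR3-treated Rag1-/- mice. The part of myeloid or stromal cells in the receptor levels was not tested.

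The authors' table also gives the average CPM over all 4 libraries on a log2 scale, which shows how much sequence stood behind each receptor. It was 343 CPM for *Ccr7*, 151 for *Cxcr5*, 68.5 for *Ccr6*, 35.2 for *Cxcr3*, 19.0 for *Ccr9* and 16.1 for *Ccr8*. *Ccr9* and *Ccr8* therefore rested on the fewest reads. Dividing CPM by the average of the 2 FPKM means gives the transcript length that the values imply. This length was 1965 bases for *Ccr7*, 1122 for *Ccr8*, 1665 for *Cxcr3* and 2593 for *Cxcr5*, or 96.2% to 99.3% of the gene length in the table. For *Ccr6* it was 1401 bases where the table lists 4308, and for *Ccr9* it was 2578 bases where the table lists 11006, or 32.5% and 23.4%. Over all listed genes the median was 50.8%.

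The longest annotated transcript in GENCODE M21 has 1755 bases for *Ccr6* and 5197 for *Ccr9*, so the lengths in the table for these genes exceed any single transcript. Among 9 *Ccr6* transcripts ENSMUST00000164411.9, with 1398 bases, was the nearest in length, and among 6 *Ccr9* transcripts it was the shortest, ENSMUST00000111454.3, with 2620 bases. Exons of other genes overlap 2 of the receptors. The last exon of *Cxcr5* shares 110 bases with *Bcl9l* on the opposite strand, and exons of *Ccr9* share 1932 bases with AC165425.1 on the opposite strand and 269 with Gm17200. The library protocol names no step that keeps the strand, so reads in these stretches could belong to either gene. Of all 50-base words in the annotated transcripts, 20.1% of those of *Ccr9* and 1.86% of those of *Cxcr5* also occurred in another gene, none of those of *Ccr6*, *Ccr7*, *Ccr8* and *Cxcr3* did, and no word was shared between the 6 receptors.

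**Figure D5:**
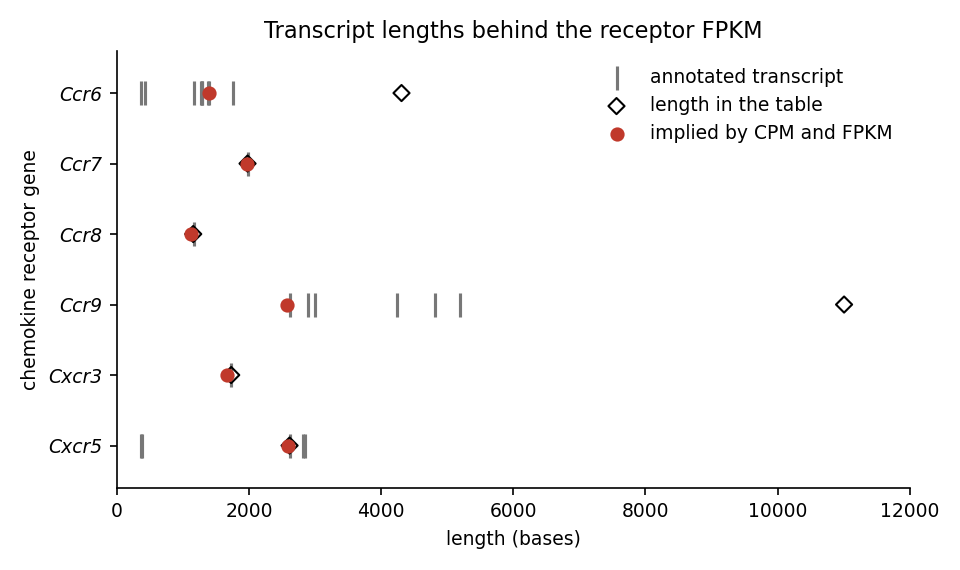
Lengths in bases for each receptor gene, with grey ticks for transcripts annotated in GENCODE M21, open diamonds for the length in the authors' table and red points for the length implied by the average CPM and FPKM. The red points fall within 5% of an annotated transcript length, and lie far below the diamonds for *Ccr6* (1401 against 4308) and *Ccr9* (2578 against 11006).

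The listed genes with the group means nearest to each receptor, by Euclidean distance on log2 of the 2 means, were *Tgm2* and *Ndrg1* for *Ccr7*, *Zbtb46* and *Tmem33* for *Cxcr5*, *Uap1* and *Ddit4* for *Ccr6*, *Pik3r6* and *Ncald* for *Ccr8*, *Sntb1* and *Cpne7* for *Ccr9*, and *P2rx7* and *Ly9* for *Cxcr3*. The closest pair was *Ccr8* with *Pik3r6*, at a distance of 0.036, and *Ndrg1* was the farthest of those named, at 0.35 from *Ccr7*. *Tgm2* had 59.555 and 318.815 FPKM, beside 54.22 and 294.485 FPKM for *Ccr7*. *P2rx7*, the gene of an ATP-gated channel, had 35.48 and 9.85 FPKM, beside 32.27 and 10.01 FPKM for *Cxcr3*. With only 2 means per gene, likeness here means a like level and a like ratio.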

How the data were processed

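ILC3s were sequenced in 4 libraries, 2 from PBS-treated and 2 from α-DR3-treated mice (1 µg, day 3), grouped by the sample titles. Per the labels and the study's methods, the authors mapped paired-end reads with STAR 2.5 to GRCm38.p5, quantified genes with RSEM 1.2 on GENCODE M16 and compared the groups with edgeR 3.18.1. The authors deposited 1 table of 2179 genes that had passed their p-value of 0.05 and 1 FPKM in at least 1 group mean. From it were used the FPKM mean of each group, the log2 average CPM over the libraries that the authors obtained from edgeR, and the gene length. The columns of fold change, likelihood ratio, p-value and FDR hold the authors' own comparison and were not used. FPKM of single libraries, which the study gives outside the deposited table for all detected genes, were not used here, so the limma test planned for values per library was not run and no precision is given. Of the gene identifiers, 2149 occur in GENCODE M21 (GRCm38), which gave coordinates and transcripts, 187 of them with the same version and 1940 with the same symbol. Identifier versions and symbols such as *Cxcr7* look older than GENCODE M16, so the annotation behind the listed lengths is uncertain.

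Ratios of group means (α-DR3 over PBS) were taken without a pseudocount, and a limit of 1.5-fold was used. Genes of 13 companion lists were matched by symbol, synonym or identifier. The genes named are the 6 receptors, listed members of these lists and the 2 listed genes nearest to each receptor, with *Slc6a20a* added, and a few items are not reported here. The receptors and lists were chosen with earlier results of these data known. Ratios and calls were checked on simulated means. Python 3.11.15, numpy 2.4.6, pandas 2.3.3 and matplotlib 3.10.9 were used.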

Additional observations from a re-analysis of the deposited data

How the results depend on the processing

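In no setting tried did a receptor turn direction. In the order *Ccr7*, *Ccr8*, *Ccr6*, *Cxcr5*, *Cxcr3* and *Ccr9*, the log2 ratios of mean FPKM were 2.44, 1.48, 1.21, 0.70, -1.69 and -2.13 as reported. They were 2.43, 1.47, 1.20, 0.69, -1.70 and -2.14 after division by the median of each group, 2.19, 1.22, 0.96, 0.44, -1.94 and -2.38 after division by the sum without *Il22*, and 2.06, 1.09, 0.83, 0.31, -2.07 and -2.51 after division by the median ratio, a setting chosen for the single receptors after seeing the data. With a pseudocount of 0.1 they were 2.44, 1.46, 1.21, 0.69, -1.68 and -2.09, with a pseudocount of 1 they were 2.42, 1.36, 1.19, 0.68, -1.60 and -1.79, and with a pseudocount of 5 they were 2.34, 1.05, 1.09, 0.64, -1.31 and -1.13. *Cxcr5* passed neither a limit of 2-fold nor the 1.5-fold limit after division by the median ratio or by the sum without *Il22*, which left 3 receptors higher and 2 lower in each case. The whole list held 446 genes above and 257 below at 2-fold, 460 and 986 after division by the median ratio and 571 and 974 after division by the sum without *Il22*, against 808 and 836 as reported. A filter at a mean FPKM over 5 and a pseudocount of 1 left 4 receptors higher and 2 lower.

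With 1 FPKM added, *Ccr7* over *Ccr9* was 4.25 in PBS and 78.8 in α-DR3, and *Ccr7* with *Cxcr5* over *Ccr9* with *Cxcr3* was 2.20 and 26.7. With *Cxcr7* in the sum, *Ccr7* and *Cxcr5* took 53.3% in PBS and 77.2% in α-DR3, and *Ccr9* and *Cxcr3* took 24.0% and 2.69%. Without *Ccr7*, *Cxcr5* took 35.3% and 41.3%, and *Ccr9* and *Cxcr3* took 35.2% and 7.33%.

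Of 110 counts of the companion lists, 16 moved by over 1.5 times or fell to 0. Many of the others were 0 in every setting, and the lists of CCR6+ and ILC3 markers share genes. These numbers are therefore no measure of stability. At 2-fold, coupling genes numbered 1 higher and 0 lower, attractant receptors 0 lower, adhesion genes 1 lower, CCR6+ markers 2 higher, NCR+ markers 1 higher and 2 lower, and ILC3 markers 2 higher and 0 lower. After division by the median ratio, higher genes numbered 1 for coupling, 3 for CCR6+ markers, 1 for NCR+ markers and 3 for ILC3 markers, beside 21.1% of all listed genes. After division by the sum without *Il22* they numbered 2 for coupling and 4 for ILC3 markers, beside 26.2% of all listed genes. At a mean FPKM over 5, 1 stroma marker was higher, beside 31.6% of the listed genes that passed this filter.

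No paired analysis was possible because the deposited table used here holds group means without replicate numbers. Leaving out each library in turn was not run for the same reason, and the FPKM of single libraries that the study gives elsewhere were not used here.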
